A study of Mus musculus with 15 samples.

Results

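A set of 10 genes of the NF-kB pathway was followed in CT26 cells, a mouse colon carcinoma line, after loss or inhibition of PRMT1. They were chosen by symbol as 4 subunits (Nfkb1, Nfkb2, Rela and Relb), 3 IkB family genes (Nfkbia, Nfkbie and Nfkbiz) and 3 further feedback or target genes (Tnfaip3, Birc3 and Icam1). All 10 were found among the 34432 genes listed in each normalized count table. PRMT1 is a type I arginine methyltransferase, and the study asked how its loss or inhibition changed transcription in these tumour cells. RNA was sequenced from 15 libraries in 2 experiments, with 3 biological replicates a group. The knockdown experiment held shControl cells, a stable line with a control hairpin, and shPrmt1 cells, a stable line selected for a DOX-inducible hairpin against Prmt1 and given DOX (doxycycline) for 3 days. The labels do not say whether shControl cells were also given DOX. The inhibitor experiment held parental CT26 cells given vehicle, MS023 or GSK3368715, which both inhibit type I arginine methyltransferases. Each inhibitor was used at 6 µM for 48 hours.

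NF-kB factors are dimers of Rel-domain proteins. Nfkb1 encodes p105, the precursor of p50, and Nfkb2 encodes p100, the precursor of p52. In resting cells most dimers are held in the cytoplasm by inhibitors such as IkBα (Nfkbia) and IkBε (Nfkbie), and p100 itself restrains RelB dimers. Signals from TNF, IL-1 or Toll-like receptors activate the IKK kinases, the inhibitors are degraded, and the freed dimers enter the nucleus. Several of the genes they switch on encode their own inhibitors, among them Nfkbia, Nfkbie, Nfkb2 and Tnfaip3, which encodes the ubiquitin-editing enzyme A20.

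Promoter sequences are shown for Nfkbie and Tnfaip3, which carried the largest called differences among these genes. The windows run from 250 bases before to 50 after the RefSeq start, on the GRCm38.p6 build, 5′ to 3′ on the strand of the gene. Capitals mark matches to either of the kB-type motifs searched on both strands, GGGANNTCC and GGGGNNTCC, whose matches can overlap. Sites of other lengths and letters also bind NF-kB and are not covered by these motifs. Of 32851 RefSeq promoter windows of this length, 4.3% held the first motif, 5.65% the other and 9.67% either.
Nfkbie (chr17:45555450-45555749, plus strand): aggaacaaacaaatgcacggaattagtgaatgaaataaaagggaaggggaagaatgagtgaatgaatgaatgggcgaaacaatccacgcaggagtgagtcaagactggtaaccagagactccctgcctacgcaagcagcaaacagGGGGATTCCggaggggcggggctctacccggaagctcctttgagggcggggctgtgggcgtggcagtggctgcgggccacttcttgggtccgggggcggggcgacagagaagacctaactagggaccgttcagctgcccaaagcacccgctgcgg
Tnfaip3 (chr10:19015361-19015660, minus strand): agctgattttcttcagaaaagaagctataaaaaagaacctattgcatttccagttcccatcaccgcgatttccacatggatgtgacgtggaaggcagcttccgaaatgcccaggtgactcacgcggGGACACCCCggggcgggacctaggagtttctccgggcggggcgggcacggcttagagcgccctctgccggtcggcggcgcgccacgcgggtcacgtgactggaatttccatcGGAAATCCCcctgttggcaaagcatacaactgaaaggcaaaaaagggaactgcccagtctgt

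In the Nfkbie window the single match, GGGGATTCC, began 105 bases before the start. The Tnfaip3 window held GGACACCCC 124 bases and GGAAATCCC 12 bases before the start, both as matches on the opposite strand. RefSeq promoter entries were found for 7 of the 10 genes, with 10 windows in all, and 3 genes held a kB match in 1 window each. The other was Nfkb2, whose first window held the overlapping GGGAATTCC and GGAATTCCC 39 and 38 bases before the start. The windows of Rela, Nfkbia, Birc3 and Icam1 held none. These motifs replaced longer, looser kB patterns after the matches of the latter had been seen, and the longer patterns had also matched windows of Rela, Nfkbia and Birc3, so the count depends on the letters searched. Icam1 held TTCCCGGAA, a match to the STAT-type GAS motif TTCNNNGAA, 42 bases before the start. The GAS motif was found in 8.3% of all windows, and of these genes in Icam1 and the first Nfkb2 window. The interferon-type motif GAAANGAAA was found in 3.17% of all windows and in none of the 10. No entry was found for Nfkb1, Relb or Nfkbiz. A match describes letters only and is not evidence of binding, and a window without one lacks only these letters.

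Reads on genes could be recovered from the deposited values, since each value was a whole multiple of a constant of its library. They ran from 17284091 to 29233738 per library in the knockdown experiment and from 40119305 to 93697833 in the inhibitor experiment. The knockdown was checked on Prmt1 (ENSMUSG00000109324), which fell from 5646 ± 62.2 (SD, n = 3) normalized counts in shControl to 704 ± 49.8 (SD, n = 3) in shPrmt1 cells, 12.5% of the control mean. The colon epithelial marker Epcam had 0 reads in all 15 libraries, for which a count of 0 allows up to 3 reads per library, and Cdh1 had at most 5 reads in any group. Of 8 colon epithelial markers only Krt18 reached a mean of 10 normalized counts in shControl cells, while the fibroblast markers Vim and Col1a1 had means of 68130 and 2116 there, with Lum at 0 reads and Dcn at 1.07. Epcam and Cdh1, which define epithelium, were thus at or near 0 in cells labelled as a colon carcinoma line, while Krt18 was present at 572 normalized counts in shControl. T cell marker Cd3e had 0 reads in every library.

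The order of the 10 genes was compared per length, as normalized counts per kb of exon. In shControl cells Nfkb2 was highest at 753 ± 24.8 per kb (SD, n = 3), followed by Rela at 413 ± 30.4, Nfkb1 at 265 ± 7.24, Nfkbia at 167 ± 18.2 and Tnfaip3 at 75.6 ± 1.99. Relb at 54.8 ± 4.34 and Nfkbiz at 54.2 ± 4.64 overlapped, and Nfkbie came next at 24.6 ± 2.94. Birc3 at 1.85 ± 1.33 and Icam1 at 0.439 ± 0.206 were the lowest. Apart from Relb and Nfkbiz, no neighbours in this order overlapped between the libraries of shControl.

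The same order held in the vehicle libraries, from Nfkb2 at 2490 ± 56.6 per kb (SD, n = 3) to Icam1 at 3.02 ± 0.357, again with overlap between Relb and Nfkbiz only. Levels in the 2 experiments were scaled separately and are not compared. With MS023 the order changed at a single place, where Relb at 304 ± 20.7 per kb stood above Tnfaip3 at 240 ± 12.1 without overlap. With GSK3368715 Tnfaip3 at 322 ± 13.2 remained above Relb at 282 ± 6.44 per kb. There Nfkb1 and Nfkbia overlapped, and so did Nfkbiz and Nfkbie.

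**Figure D1:**
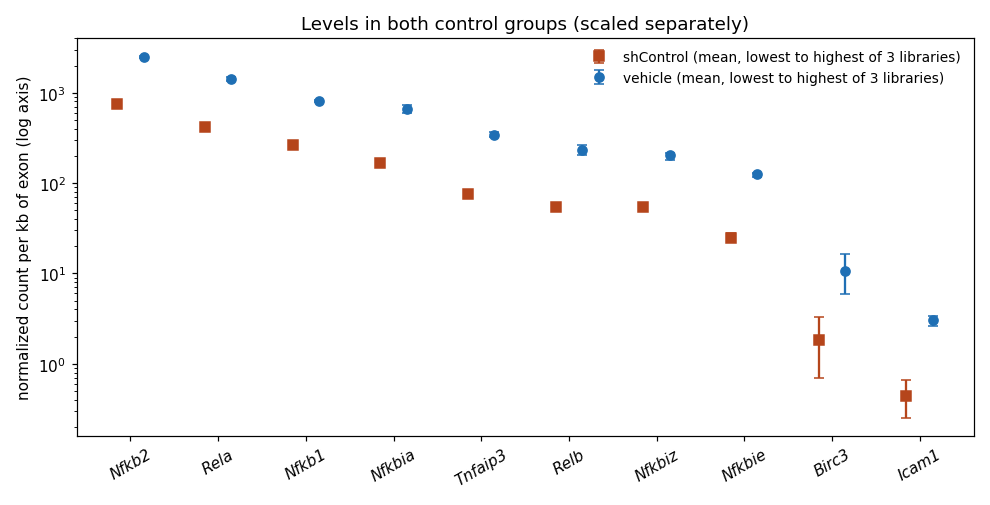
Levels of the 10 genes in the shControl libraries (squares) and the vehicle libraries (circles), as normalized counts per kb of exon on a log axis. Points are means of 3 libraries and bars run from the lowest to the highest library. In both groups Nfkb2 is highest and Icam1 lowest, and the groups are scaled separately.

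Each treated group was compared with its own control by limma on log2(normalized count + 1). A gene was tested if 3 or more libraries of the experiment reached 10 normalized counts, and it was called at a Benjamini-Hochberg adjusted p under 0.05 over all genes tested. For genes with few reads, differences on this scale come out too small. In bulk RNA, fewer cells of a kind and less RNA per cell cannot be told apart.

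No gene of the set was called in shPrmt1 cells. Of the 10 genes 8 passed the filter, and limma called 0 of the 8 in shPrmt1 cells, against 14.7% of all 11485 genes tested (7.5% called higher and 7.17% lower). At an unadjusted p under 0.05 there was 1, Tnfaip3, and edgeR and DESeq2 on the recovered reads each called 0. The libraries of the 2 groups did not overlap for 1 of the 8 genes, again Tnfaip3, against 38% of all genes. The median log2 fold change of the 8 was -0.01, and the median over all genes tested was -0.0036.

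With MS023, 3 of 10 genes were called against 27.9% of the 13014 genes tested. Relb and Nfkbie were called higher, against 13.7% of all genes, and Tnfaip3 was called lower, against 14.1%. The same 3 were the genes without overlap between groups, a state found for 44.5% of all genes. The median of the 10 log2 fold changes was 0.14, beside 0.0028 over all genes. The share of the 10 genes called with MS023 is close to that background, so the count by itself is not a result about these genes.

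With GSK3368715, 1 of 10 genes, Nfkbie, was called higher, against 5.16% of all genes called higher, 4.47% called lower and 9.64% in all, again a share near the background. Nfkbie and Relb did not overlap between groups, as was the case for 27.7% of all genes. The median log2 fold change was 0.05, beside 4.2e-04 over all genes. MS023 and GSK3368715 were compared with the same 3 vehicle libraries, so their values are given side by side and their likeness is not counted as a result. Between the inhibitors 1 of 10 genes was called, Tnfaip3, lower with MS023, against 0.515% of all genes (0.2% higher and 0.315% lower). Its libraries did not overlap between the inhibitors, as in 21.4% of all genes.

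Single libraries bear on these counts. Over all genes vehicle replicate 2 stood farthest from the other vehicle libraries, with a chi-square per gene of 74.9 and 43.7 against replicates 1 and 3, which differed from each other by 20.4. This measure of the recovered reads grows with depth as well. Likewise shPrmt1 replicate 2 differed from its replicates by 22.6 and 21.4, and the other pair by 4.28. Vehicle replicate 1 was the highest of the vehicle libraries for Relb, Nfkbia, Birc3, Tnfaip3, Rela, Nfkb2 and Icam1. Without it MS023 had 5 called genes, Nfkbia and Birc3 joining the other 3, and GSK3368715 had 4, namely Relb, Nfkbia, Nfkbie and Birc3. The same fits without that library called 26.3% and 8.76% of all genes. Without MS023 replicate 3 the MS023 count was 2, as Relb was not called, and that fit called 19.5% of all genes. In the comparison of the inhibitors the count was 0 whichever of the 6 libraries was left out. Those fits called 0.0155% to 0.0849% of all genes, beside 0.515% with all libraries.

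**Figure D2:**
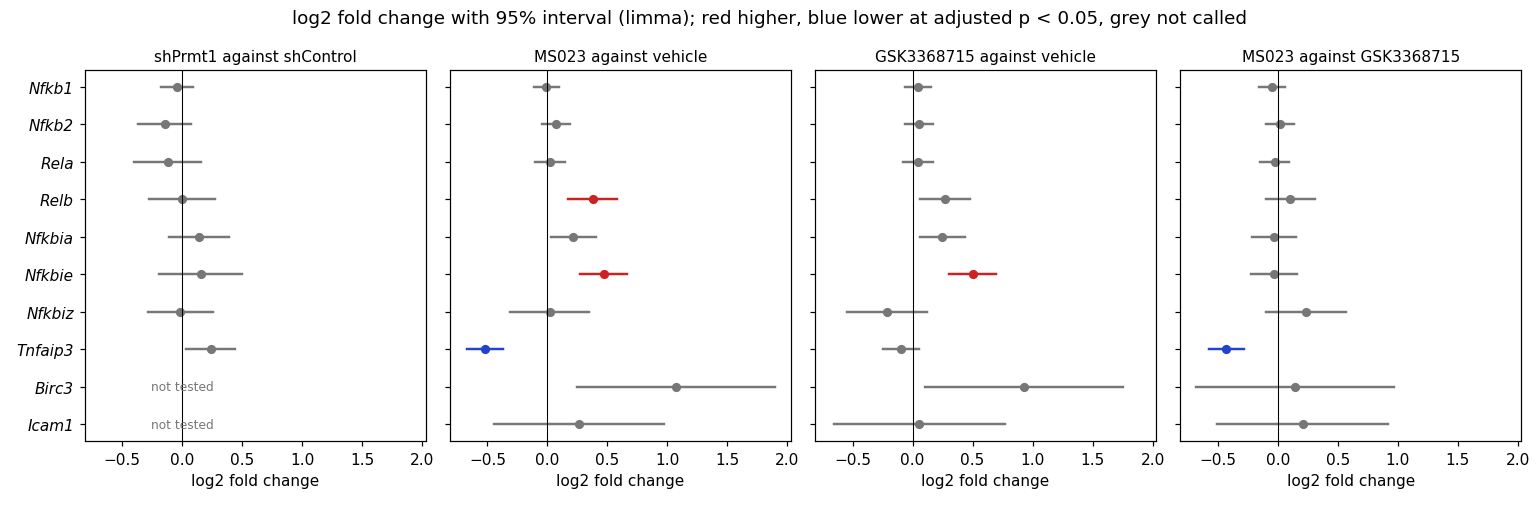
The log2 fold change (x axis) of each gene (y axis) in the 4 comparisons, with its 95% interval from limma. Red marks genes called higher, blue lower and grey not called. Nfkbie is called higher with both inhibitors, Relb with MS023 only, and Tnfaip3 lower with MS023 against both vehicle and GSK3368715. Birc3 and Icam1 were below the filter in the knockdown experiment.

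The classical subunits Nfkb1 and Rela were called in no comparison. Nfkb1 (ENSMUSG00000028163, mm10 chromosome 3, 135584655 to 135691547, minus strand) gave 3269, 3209 and 3097 normalized counts in shControl libraries and 3137, 2988 and 3175 in shPrmt1 libraries. The groups overlapped, with a log2 fold change of -0.04 (95% interval -0.18 to 0.09). In the inhibitor experiment it had 9872, 9948 and 9510.4 normalized counts with vehicle, 9739, 9450.0 and 9972 with MS023, and 10267, 9614 and 10322 with GSK3368715. All 3 groups overlapped, and the log2 fold changes were -0.01 (95% interval -0.12 to 0.10) for MS023 and 0.04 (-0.07 to 0.15) for GSK3368715.

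Rela (ENSMUSG00000024927, mm10 chromosome 19, 5637483 to 5648130, plus strand) encodes p65, the subunit that activates transcription in the classical dimer. It had 1271, 1172 and 1359 normalized counts in shControl libraries and 1299.8, 953 and 1267 in shPrmt1 libraries. The low value belonged to shPrmt1 replicate 2, and the log2 fold change was -0.12 (95% interval -0.41 to 0.16). Vehicle libraries had 4631, 4181 and 4380.1, MS023 libraries 4329, 4347 and 4676, and GSK3368715 libraries 4498, 4441 and 4662 normalized counts. These overlapped throughout, at log2 fold changes of 0.02 (95% interval -0.11 to 0.14) and 0.05 (-0.08 to 0.17).

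Nfkb2 (ENSMUSG00000025225, mm10 chromosome 19, 46304320 to 46312385, plus strand) belongs to the non-canonical arm of the pathway. Normalized counts were 3501, 3321 and 3532 in shControl libraries and 3427, 2669 and 3315 in shPrmt1 libraries. Again shPrmt1 replicate 2 was the lowest, and the log2 fold change of -0.15 (95% interval -0.37 to 0.07) became -0.03 without it. With vehicle Nfkb2 had 11703, 11346 and 11199 normalized counts, with MS023 11526, 12007 and 12444, and with GSK3368715 11706, 11363 and 12504. The groups overlapped, at log2 fold changes of 0.07 (95% interval -0.05 to 0.19) and 0.05 (-0.06 to 0.17). Nfkb2 shares 299 exonic bases with Psd on the opposite strand, a gene with 78.5 to 95.1 normalized counts in shControl and 276 to 424 in vehicle libraries, and 531 with the unlisted AC114539.1. The sources used here do not say whether counting used strand, so reads from these stretches cannot be told apart.

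Of the 4 subunits in the set, Relb was called with MS023. The gene (ENSMUSG00000002983, mm10 chromosome 7, 19606217 to 19629438, minus strand) encodes RelB, which pairs with p52 in the non-canonical arm. It had 1034, 801 and 907 normalized counts with vehicle and 1194, 1096 and 1255 with MS023. Every MS023 library was above every vehicle library. The means were 914 ± 117 and 1182 ± 80.5 (SD, n = 3 each), a log2 fold change of 0.38 ± 0.09 (SE, 95% interval 0.17 to 0.58, adjusted p = 0.013 by limma). Without MS023 replicate 3 it was 0.33 (adjusted p = 0.057 by limma).

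GSK3368715 libraries had 1073, 1123 and 1096 normalized counts of Relb, also above every vehicle library. Their log2 fold change of 0.27 ± 0.09 (SE, 95% interval 0.06 to 0.48) was not called (adjusted p = 0.096 by limma). Without vehicle replicate 1 it was 0.36 (adjusted p = 0.028 by limma), and without vehicle replicate 2 it was 0.18 (adjusted p = 0.21 by limma). The difference between the inhibitors was 0.11 on the log2 scale, with an interval of -0.10 to 0.31, and was not called. In the knockdown experiment Relb had 232, 203 and 203 normalized counts in shControl and 223, 188 and 228 in shPrmt1 libraries, which overlapped fully. The log2 fold change there was -0.0034 (95% interval -0.28 to 0.27), a value too near 0 to carry a direction.

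Among the inhibitors of NF-kB, Nfkbie rose with both compounds. The gene (ENSMUSG00000023947, mm10 chromosome 17, 45555703 to 45563169, plus strand) encodes IkBε, and its promoter with a single kB match is printed above. Vehicle libraries had 387, 358 and 394 normalized counts, MS023 libraries 559, 486 and 535, and GSK3368715 libraries 506, 555 and 552. No inhibitor library came down to the highest vehicle library. With MS023 the mean was 527 ± 37.5 against 380 ± 19.2 (SD, n = 3 each), a log2 fold change of 0.47 ± 0.09 (SE, 95% interval 0.27 to 0.66, adjusted p = 0.0033 by limma). With GSK3368715 the mean was 538 ± 27.4, a log2 fold change of 0.50 ± 0.09 (SE, 95% interval 0.31 to 0.69, adjusted p = 0.0070 by limma).

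Nfkbie was called for both compounds under every alternative setting and with any single library of the groups compared left out. The difference between MS023 and GSK3368715 was -0.03 on the log2 scale, with an interval of -0.23 to 0.16. In the knockdown experiment it had 67.8, 85.0 and 71.9 normalized counts in shControl libraries and 80.0, 81.2 and 87.8 in shPrmt1 libraries. These overlapped, and the log2 fold change of 0.15 (95% interval -0.19 to 0.50) was not called (adjusted p = 0.53 by limma). That interval holds the value seen with MS023 and ends just below that seen with GSK3368715. The reads behind it were few, 260 over the 3 shControl libraries and 223 over the 3 shPrmt1 libraries, beside 1078 over the vehicle libraries.

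Nfkbia (ENSMUSG00000021025, mm10 chromosome 12, 55489410 to 55492647, minus strand) encodes IkBα, which is resynthesised after each round of NF-kB activity. Its normalized counts were 1185, 1003 and 966 with vehicle, 1182, 1214 and 1257 with MS023, and 1174, 1299.8 and 1258 with GSK3368715. Vehicle replicate 1 lay within the range of the inhibitor libraries, and the other vehicle libraries lay below all of them. The log2 fold changes were 0.22 ± 0.08 (SE, 95% interval 0.03 to 0.40, adjusted p = 0.078 by limma) with MS023 and 0.25 ± 0.08 (SE, 95% interval 0.06 to 0.43, adjusted p = 0.091 by limma) with GSK3368715. Neither was called. Without vehicle replicate 1 both were, at 0.31 (adjusted p = 0.013 by limma) and 0.34 (adjusted p = 0.020 by limma). Without vehicle replicate 3 they were 0.16 (adjusted p = 0.24 by limma) and 0.19 (adjusted p = 0.26 by limma). With every library scaled to the same total MS023 was called as well, at 0.25 (adjusted p = 0.049 by limma).

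In the knockdown experiment Nfkbia had 300.2, 264 and 242 normalized counts in shControl and 309, 285 and 292 in shPrmt1 libraries. The groups overlapped through shControl replicate 1, and the log2 fold change was 0.14 (95% interval -0.11 to 0.39, adjusted p = 0.42 by limma). It was 0.22 without shControl replicate 1 and 0.07 without shControl replicate 3, not called in either case.

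Nfkbiz (ENSMUSG00000035356, mm10 chromosome 16, 55811375 to 55838899, minus strand) encodes IkBζ, a nuclear protein that acts on p50 and can switch on a secondary set of target genes. It had 247, 294 and 274 normalized counts in shControl and 238, 297 and 272 in shPrmt1 libraries, a log2 fold change of -0.02 (95% interval -0.29 to 0.25). With vehicle it had 1062, 901 and 1090.2 normalized counts, with MS023 1092, 1062 and 934, and with GSK3368715 1122, 853 and 697. The GSK3368715 libraries spread the most, from above the vehicle range to below it. The log2 fold changes of 0.02 (95% interval -0.31 to 0.35) and -0.21 (-0.55 to 0.12) were not called. Without GSK3368715 replicate 1 the latter was -0.39 (adjusted p = 0.088 by limma), and without GSK3368715 replicate 3 it was -0.05 (adjusted p = 0.86 by limma).

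Tnfaip3 fell with MS023 and did not move detectably with GSK3368715. The gene (ENSMUSG00000019850, mm10 chromosome 10, 19000910 to 19015657, minus strand) encodes A20, which removes and edits ubiquitin chains on adaptors upstream of IKK, and the RefSeq start of the window printed above lies inside these bounds. It had 2659, 2490.0 and 2320.3 normalized counts with vehicle, 1669, 1696 and 1832 with MS023, and 2237, 2428 and 2326 with GSK3368715. All MS023 libraries were below all other libraries of the experiment, and the GSK3368715 libraries overlapped with vehicle. With MS023 the mean was 1732 ± 87.3 against 2490 ± 170 (SD, n = 3 each), 69.6% of the vehicle mean. The log2 fold change was -0.52 ± 0.07 (SE, 95% interval -0.67 to -0.37, adjusted p = 4.3e-04 by limma), and it was called under every alternative setting and with any single vehicle or MS023 library left out.

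With GSK3368715 the log2 fold change of Tnfaip3 was -0.09 (95% interval -0.24 to 0.06, adjusted p = 0.42 by limma). The difference between the inhibitors was tested directly and was -0.43 ± 0.07 on the log2 scale (SE, 95% interval -0.58 to -0.28, adjusted p = 0.029 by limma). Each of the 3 MS023 libraries lay below each GSK3368715 library. With 1 of the 6 inhibitor libraries left out the difference ran from -0.47 to -0.40, and the adjusted p ran from 0.073 to 0.14, so that the call was lost each time. Without the trend in the variance the adjusted p was 0.074, and under the replicate block it was 0.095.

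In shPrmt1 cells Tnfaip3 stood on the other side of its control. It had 559, 531 and 548 normalized counts in shControl and 608, 719 and 609 in shPrmt1 libraries, with every shPrmt1 library above every shControl library. The means were 546 ± 14.4 and 645 ± 63.5 (SD, n = 3 each). The log2 fold change of 0.24 ± 0.09 (SE, 95% interval 0.03 to 0.44) did not pass the threshold (adjusted p = 0.12 by limma). The highest value was that of shPrmt1 replicate 2, and without this library the log2 fold change was 0.16 (adjusted p = 0.14 by limma). The intervals of the knockdown and of MS023 did not overlap. The difference between them was not tested.

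**Figure D3:**
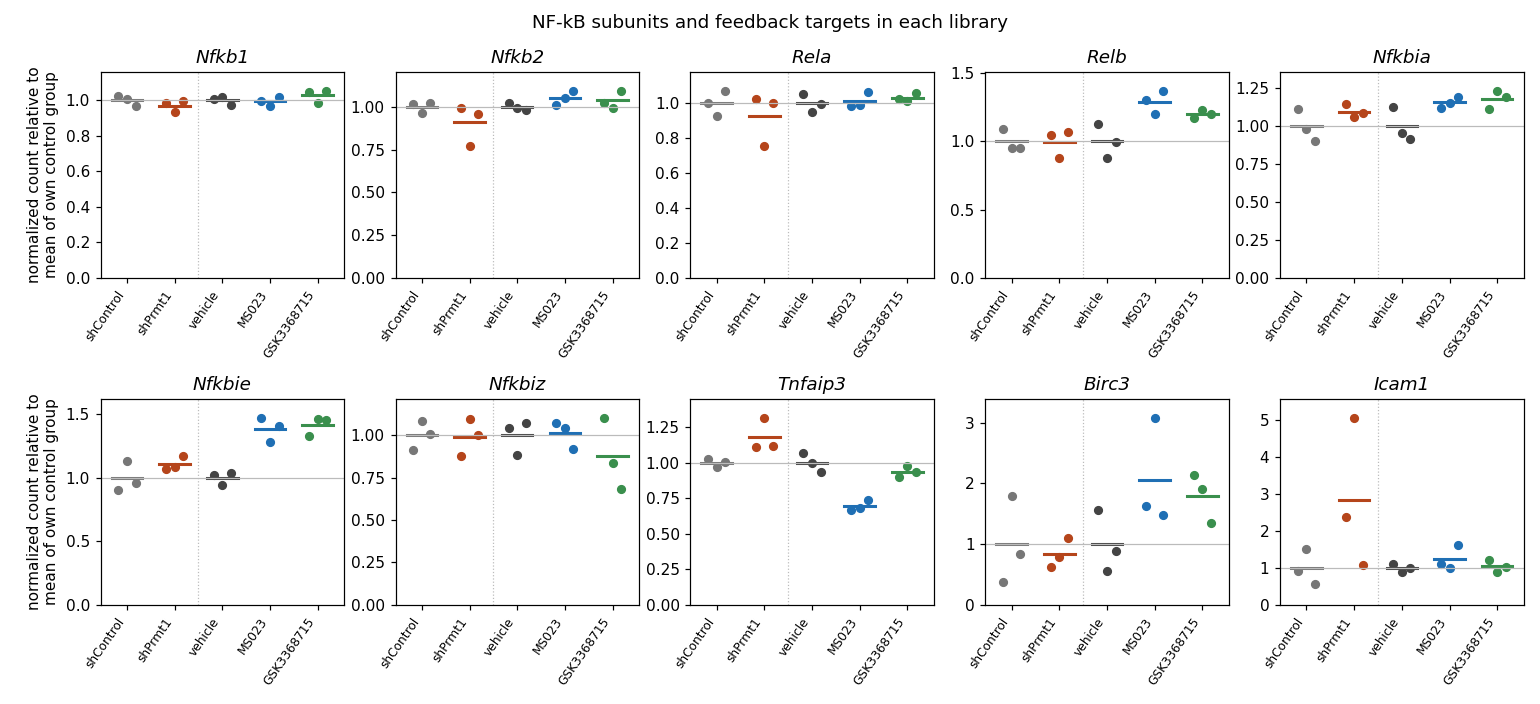
Normalized count of each gene in each library, divided by the mean of its own control group (y axis, from 0), for the 5 groups (x axis). Points are libraries, short lines group means, and the dotted line parts the knockdown from the inhibitor experiment. Tnfaip3 with MS023 lies at 69.6% of vehicle without overlap, and Nfkbie lies above vehicle with both inhibitors. In the knockdown experiment Birc3 and Icam1 vary most between replicates.

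Birc3 and Icam1 were read thinly. Birc3 (ENSMUSG00000032000, mm10 chromosome 9, 7848699 to 7873186, minus strand) encodes cIAP2, a ubiquitin ligase at TNF receptors and an NF-kB target. In the knockdown experiment it had 3.52, 16.6 and 7.74 normalized counts in shControl and 5.72, 7.27 and 10.2 in shPrmt1 libraries, 34 and 21 reads in all, and it was below the filter. Vehicle libraries had 83.1, 29.7 and 47.0 normalized counts, MS023 libraries 86.8, 164 and 78.5, and GSK3368715 libraries 114, 102 and 71.4. Vehicle replicate 1 was within the range of both inhibitors, and the other vehicle libraries were below.

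The mean of Birc3 was 2.06 times the vehicle mean with MS023 and 1.80 times with GSK3368715. On the log2 scale these were 1.07 ± 0.37 (SE, 95% interval 0.24 to 1.90, adjusted p = 0.055 by limma) and 0.93 ± 0.37 (SE, 95% interval 0.10 to 1.76, adjusted p = 0.15 by limma), and neither was called. DESeq2 on the recovered reads called the MS023 value, at 1.05 (adjusted p = 0.026), and edgeR did not (adjusted p = 0.063). Without vehicle replicate 1 both were called by limma, at 1.45 (adjusted p = 0.012) and 1.31 (adjusted p = 0.041). Without vehicle replicate 2 they were 0.72 (adjusted p = 0.16 by limma) and 0.58 (adjusted p = 0.32 by limma), and the MS023 value was 0.74 without MS023 replicate 2 (adjusted p = 0.20 by limma).

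Icam1 (ENSMUSG00000037405, mm10 chromosome 9, 21015985 to 21028817, plus strand) encodes an adhesion molecule that binds leukocyte integrins and is a common readout of NF-kB activity. It had 1.76, 2.88 and 1.11 normalized counts in shControl libraries, 7 reads in all, and 4.57, 9.70 and 2.04 in shPrmt1 libraries, 14 reads in all. The groups overlapped and the gene was below the filter. With the filter removed its log2 fold change was 1.00 and was not called (adjusted p = 0.32 by limma). With so few reads a modest difference would not be detected. In the inhibitor experiment Icam1 had 14.7, 11.6 and 13.3 normalized counts with vehicle, 14.4, 13.1 and 21.3 with MS023, and 16.0, 11.8 and 13.4 with GSK3368715. These overlapped, and the log2 fold changes of 0.26 (95% interval -0.45 to 0.97) and 0.05 (-0.66 to 0.77) were not called. Icam1 shares 511 exonic bases with the antisense gene Gm47079, which has no values in the tables.

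Levels of markers of other cell types were summed per library. The summed level of the 8 colon epithelial markers was 933 to 1082 normalized counts in vehicle libraries, 1375 to 1496 with MS023 and 1146 to 1251 with GSK3368715, almost all of it Krt18, so that vehicle overlapped with neither inhibitor. Of these 8, 3 reached a mean of 10 with vehicle and 4 with either inhibitor, and Epcam was at 0. The 8 leukocyte markers summed to 1462 to 1727 with vehicle, 1235 to 1302 with MS023 and 1360 to 1491 with GSK3368715, mostly Cd14 and overlapping with vehicle for GSK3368715 only, with Ptprc at 9 reads or fewer in each group. The 8 fibroblast markers summed to 331279 to 347276, 305910 to 336039 and 322315 to 349735, sums set mainly by Vim and Col1a2. Within this list the mean of Pdgfrb was 1876 with vehicle, 2471 with MS023 and 2918 with GSK3368715, that of Pdgfra was 826, 1091 and 1126, and that of Col1a1 was 18543, 13071 and 17227 normalized counts. Lymphocyte markers summed to at most 42.2 and the 5 endothelial markers to at most 67.5 in any library of the inhibitor experiment. In the knockdown experiment the epithelial markers went from a summed 569 to 620 in shControl to 392 to 480.1 in shPrmt1 libraries, and the leukocyte markers went from 532 to 639 to 467 to 524. The fibroblast markers summed to 101769 to 107426 and to 89826 to 108725. Within that list the mean of Col1a1 went from 2116 to 4207, of Col3a1 from 110.3 to 212 and of Pdgfrb from 242 to 391, while Pdgfra went from 268 to 186 normalized counts. The part of these differences in the results above was not tested.

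Other genes of the pathway were followed in 5 lists with 99 members. In shPrmt1 cells 69 were tested and 11 were called, 7 higher and 4 lower, which is 15.9% beside 14.7% of all genes. With MS023, of 76 tested, 23 were called, 12 higher and 11 lower, 30.3% beside 27.9%. With GSK3368715 there were 14, 8 higher and 6 lower, 18.4% beside 9.64%. With every library scaled to the same total, 10 were called higher and 2 lower in shPrmt1 cells, 16 and 11 with MS023, and 8 and 6 with GSK3368715. That scaling moved all genes in the same way, to 9.42% called higher and 5.8% lower in shPrmt1 cells and 16.9% and 11.6% with MS023. With the replicate block 21 were called in shPrmt1 cells, beside 23.3% of all genes, and with DESeq2 17, beside 18.7%. Median log2 fold changes were 0.09, 0.06 and 0.04. These counts moved with single libraries. In shPrmt1 cells there were 6, 7 and 5 without shControl replicate 1, 2 or 3, beside 5.72%, 7.75% and 6.34% of all genes. There were 17 without shPrmt1 replicate 2 and 6 without shPrmt1 replicate 3, beside 21.7% and 9.45% of all genes. With MS023 there were 15 without vehicle replicate 3 and 14 without MS023 replicate 2, beside 20.1% and 18.6% of all genes. With GSK3368715 there were 5 without vehicle replicate 3, beside 4.52% of all genes. There were 7, 7 and 8 without GSK3368715 replicate 1, 2 or 3, beside 5.84%, 6.51% and 6.01%.

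Receptors and adaptors had 4 called of 21 tested in shPrmt1 cells, and of 22 tested 6 with MS023 and 5 with GSK3368715, beside 14.7%, 27.9% and 9.64% of all genes. Tlr3, the endosomal receptor for double-stranded RNA, rose in all 3 comparisons, by 0.84 on the log2 scale in shPrmt1 cells (adjusted p = 0.0087 by limma), by 0.53 with MS023 (9.9e-04) and by 0.64 with GSK3368715 (0.0014). It shares 381 exonic bases with the antisense Gm45542. Il1rap, the accessory chain of the IL-1 receptor, rose by 0.55 in shPrmt1 cells (adjusted p = 0.019 by limma), by 0.31 with MS023 (0.013) and by 0.28 with GSK3368715 (0.044), and it shares 552 exonic bases with Gm20319 on the opposite strand. Tlr6 rose in shPrmt1 cells by 1.52 ± 0.43 (SE, adjusted p = 0.048 by limma). Its levels were low, 68.0 ± 16.6 normalized counts in shPrmt1 against 26.0 ± 17.6 in shControl libraries (SD, n = 3 each). Tnfrsf1b, which encodes TNF receptor 2, rose by 0.40 with MS023 (adjusted p = 5.4e-04 by limma) and 0.34 with GSK3368715 (0.0051). Tlr6 was not called at 0.36 with MS023 (0.20) or at 0.53 with GSK3368715 (0.11), nor was Tnfrsf1b at 0.20 in shPrmt1 cells (0.22). The kinase gene Irak1, which acts below IL-1 and Toll-like receptors, fell by 0.50 on the log2 scale both in shPrmt1 cells (adjusted p = 0.0034 by limma) and with MS023 (2.1e-04) and by 0.24 with GSK3368715 (0.024), and its exons hold the miRNA genes Mir718 and Mir5132. Tnfrsf12a, the receptor gene for TWEAK, fell by 0.40 with MS023 (adjusted p = 8.7e-04 by limma) and by 0.27 with GSK3368715 (0.020), and was not called at -0.25 in shPrmt1 cells (0.23).

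Of 10 ligand genes only Tnfsf12, which encodes TWEAK, passed the filter. It was called higher with MS023 and GSK3368715, by 0.25 and 0.26 on the log2 scale, and not in shPrmt1 cells, at 0.22.

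Among 15 kinases and ubiquitin ligases 1 was called in shPrmt1 cells, 3 with MS023 and 1 with GSK3368715, beside 14.7%, 27.9% and 9.64% of all genes. Rbck1, which encodes the HOIL-1 subunit of the linear ubiquitin ligase, fell by 0.42 in shPrmt1 cells (adjusted p = 0.037 by limma) and by 0.45 with MS023 (0.0023), and was not called at -0.25 with GSK3368715 (0.075). Of 14 other subunits and inhibitors tested 2, 6 and 2 were called. Trim30a, an interferon-induced gene that restrains Toll-like receptor signals, rose by 1.77 in shPrmt1 cells (adjusted p = 5.4e-05 by limma), 0.51 with MS023 (0.0011) and 0.50 with GSK3368715 (0.0046). Rel, the gene for the subunit c-Rel, rose by 0.24 with MS023 (adjusted p = 0.034 by limma) and was not called with GSK3368715, at 0.24 (0.066), or in shPrmt1 cells, at 0.11 (0.51), and is named here after its values were seen. Tank, which encodes a TRAF-binding adaptor, rose by 0.39 in shPrmt1 cells (0.014), and Nlrc5, also the transactivator of MHC class I genes, rose by 1.08 with MS023 (0.016). Nlrc5 was not called at 2.11 in shPrmt1 cells (0.073) or at 0.96 with GSK3368715 (0.056), although neither pair of groups overlapped, and Tank was not called at -0.05 with MS023 (0.60) or at -0.0027 with GSK3368715 (0.98). Nlrc5 shares 78 exonic bases with 9330175E14Rik on the opposite strand.

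The other target genes had 4 called of 18 tested in shPrmt1 cells, 2 in each direction, and of 24 tested 7 with MS023 (2 higher, 5 lower) and 5 with GSK3368715 (1 higher, 4 lower). Of all genes, 7.5% were called higher and 7.17% lower in shPrmt1 cells, 13.7% and 14.1% with MS023, and 5.16% and 4.47% with GSK3368715. Ptgs2, which encodes cyclooxygenase 2, fell by 0.66 on the log2 scale with MS023 (adjusted p = 4.6e-05 by limma) and by 0.46 with GSK3368715 (0.0010), and in shPrmt1 cells its value was 0.24 (0.20), not called. Cflar, which encodes the caspase-8 inhibitor c-FLIP, fell by 0.21 in shPrmt1 cells (adjusted p = 0.048 by limma), 0.52 with MS023 (4.7e-05) and 0.27 with GSK3368715 (0.0049). It was also the 1 pathway gene of 76 tested that was called between the inhibitors, lower with MS023 by 0.25 (0.039), beside 0.515% of all genes. This call was not checked under the alternative settings. Those with 1 library left out called 0.0155% to 0.0849% of all genes between the inhibitors. Ier3, an early response gene, fell by 0.65 in shPrmt1 cells (0.0065) and 0.50 with GSK3368715 (0.040), and was not called at -0.38 with MS023 (0.053).

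Nos2, the inducible nitric oxide synthase gene, fell by 0.97 with MS023 (adjusted p = 0.021 by limma), and Lif fell by 0.39 with MS023 (0.0062) and by 0.33 with GSK3368715 (0.036). Neither was called elsewhere: Nos2 was at -0.65 with GSK3368715 (0.15) and below the filter in the knockdown experiment, and Lif was at 0.20 in shPrmt1 cells (0.27). Lcn2, the gene for lipocalin 2, rose by 1.05 with MS023 (0.014), and Ccl2, a monocyte chemokine gene, rose by 0.66 with GSK3368715 (0.044). With the other inhibitor Lcn2 was at 0.54 (0.23) and Ccl2 at 0.24 (0.35), both not called. The largest fold change of a called pathway gene was that of Lcn2 in shPrmt1 cells, named here after its value was seen, at 3.17 on the log2 scale (adjusted p = 0.0022 by limma). Its mean there was 24.7 normalized counts against 1.80.

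**Figure D4:**
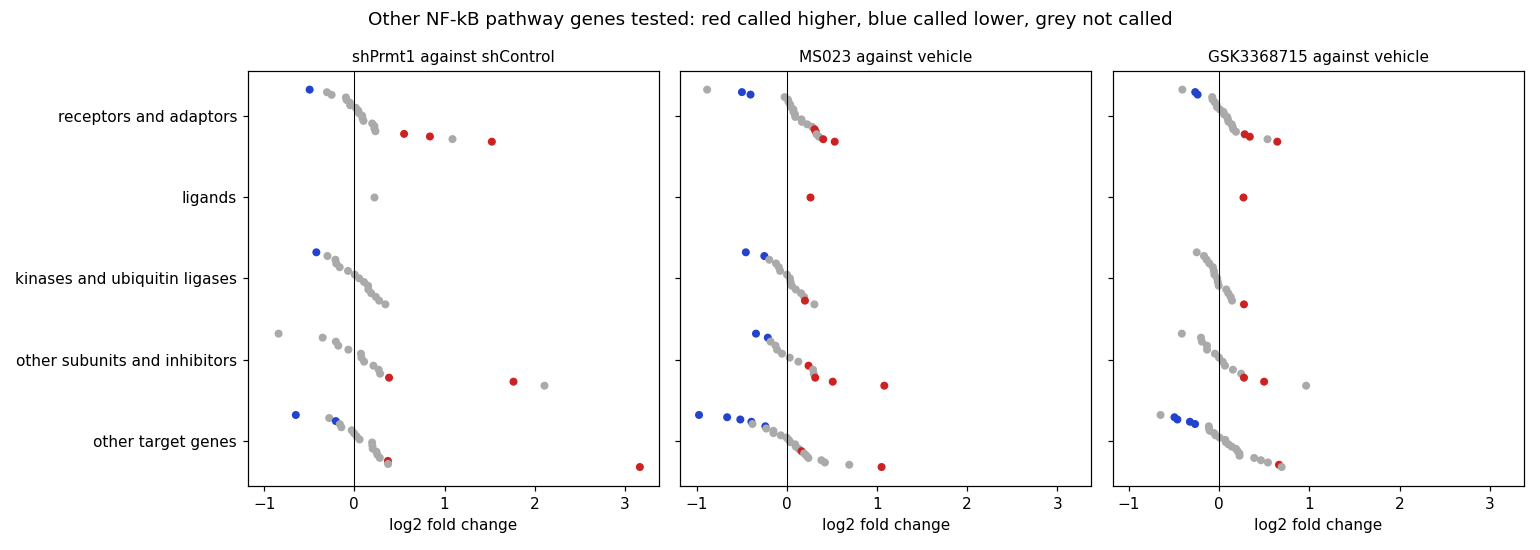
The log2 fold change (x axis) of each tested gene of the 5 pathway lists (y axis) against its own control. Each point is a gene, red called higher, blue called lower and grey not called. With MS023, 5 of the 7 called target genes lie below 0, and the point farthest to the right in shPrmt1 cells is Lcn2 at 3.17.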

How the data were processed

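RNA from CT26 cells was sequenced as paired-end reads of poly(A)-selected libraries on a NextSeq 500. The authors quantified reads with Salmon (1.4.0 in the submitters' processing notes) on the mm10 genome. What the authors deposited per gene is a scaled signal, the count over the size factor of its library from DESeq2. The version of their DESeq2 and the strand setting of the counting are not given in the sources used here. Each experiment was normalized by the authors on its own, and no test was made across the 2 tables. Whole reads were recovered within a tolerance of 0.1 for 100% of the 34432 values of each library. Depth therefore is known: from 17284091 to 93697833 reads on genes. These are reads without molecular identifiers, so floors of 3 reads cover counting error only. The authors' 3 tables of fold changes and p-values were not used.

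Log2(normalized count + 1) was tested with limma 3.58.1 (lmFit, eBayes with trend) in R 4.3.3, two-sided, as 3 against 3 libraries for the knockdown and with 9 libraries in a single fit for the inhibitors. To be tested, a gene had to reach 10 normalized counts in 3 or more libraries. The alternatives tried were a smaller or larger pseudocount (0.5, 5), the filter removed or raised to 50, libraries scaled to a common upper quartile or a common total, eBayes without trend, a block for the replicate number, a fit of the compared groups alone, edgeR 4.0.16 or DESeq2 1.42.0 on recovered reads, and each library left out. The tests were tried on simulated data first. The 10 genes, the pathway lists and the markers were chosen with earlier results of these data known. Named pathway genes are up to 5 increases and 5 decreases of largest size per comparison with controls, among those called with a mean of at least 50 in the higher group. For Nfkbia and Icam1 the 3 genes of highest Pearson r are named as well. Exon lengths, coordinates and overlaps come from the GENCODE annotation of mm10. A search for transcripts at high identity found no near copies of these genes. The promoter motifs were shortened after a first search: that search used longer, looser kB patterns, matched further windows, among them those of Nfkbia, Rela and Birc3, and is not reported here.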

Additional observations from a re-analysis of the deposited data

Results flagged for a closer look

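The response of Tnfaip3, the gene for A20, differed between the inhibitors. With MS023 against GSK3368715 the log2 fold change was -0.43 (adjusted p = 0.029 by limma), and all 3 MS023 libraries were below all 3 GSK3368715 libraries. Across the alternative settings with all libraries the adjusted p ran from 8.9e-06 to 0.095. The share of all genes called in these settings ran from 0.0307% with the replicate block to 2.8% with DESeq2. The call of Tnfaip3 was lost with no trend (0.074) and with the replicate block (0.095). It was also lost with any 1 of the 6 inhibitor libraries left out, in fits that called 0.0155% to 0.0849% of all genes. With all libraries the share was 0.515%.

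Tnfaip3 also stood on opposite sides of its control in the experiments. In shPrmt1 cells the log2 fold change was 0.24, with all 3 libraries above shControl, a value that was not called (adjusted p = 0.12 by limma) and was 0.16 without shPrmt1 replicate 2. Groups did not overlap for 38% of all genes tested there. With MS023 it was -0.52, with all 3 libraries below vehicle. The difference between these values was not tested.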

How the results depend on the processing

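Those of the 10 genes that were called kept their direction under all alternatives. For pathway genes the alternatives were run as counts only, and not for MS023 against GSK3368715. Of the 10 genes, the number called with 1 library left out ran from 2 to 5 for MS023, from 1 to 4 for GSK3368715, and was 0 throughout for MS023 against GSK3368715, where it was also 0 with no trend and with the replicate block. Between the inhibitors, fits with 1 library left out called 0.0155% to 0.0849% of all genes. No trend called 0.0615% there and the replicate block 0.0307%, beside 0.515% in the main fit. Of the pathway genes, the number called with 1 library left out ran from 5 to 17 in shPrmt1 cells. It ran from 14 to 23 with MS023 and from 5 to 14 with GSK3368715. The share of all genes called in such fits ran from 5.72% to 21.7% in shPrmt1 cells. With MS023 that share ran from 18.6% to 26.3%, and with GSK3368715 from 4.52% to 9.83%. The count in shPrmt1 cells was 21 with the replicate block and 17 with DESeq2, beside 23.3% and 18.7% of all genes. With GSK3368715 it was 6 when only the groups compared were fitted, beside 4.68% of all genes. The cause was not tested.

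Same-numbered libraries were not treated as pairs in the main fit. The correlations of their deviations were 0.06, 0.12 and 0.08 in the knockdown experiment, where each library correlated best with its own number. In the inhibitor experiment they ran from -0.10 to 0.11. For shPrmt1 against shControl the replicate block called 23.3% of all genes, beside 14.7% in the main fit. These values do not settle whether libraries of the same number were made together. The replicate block left the other counts of the 10 genes at their values.

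Values near 0 changed sign. In shPrmt1 cells Relb was 0.029 at the same total, 0.0026 with edgeR and 0.0032 with DESeq2, and Nfkbiz was 0.014 at the same total. With MS023 Nfkb1 was 0.0017 at the same upper quartile and 0.026 at the same total. With 1 library left out, the ranges that crossed 0 were, in shPrmt1 cells, Rela -0.20 to 0.020, Relb -0.054 to 0.083 and Nfkbiz -0.093 to 0.067. With MS023 they were Nfkb1 -0.028 to 0.012, Rela -0.018 to 0.056 and Nfkbiz -0.067 to 0.086, and with GSK3368715 Icam1 -0.055 to 0.15. Between the inhibitors they were Nfkb2 -0.013 to 0.056, Nfkbia -0.071 to 0.0024, Nfkbie -0.076 to 0.025 and Birc3 -0.18 to 0.34. None of these was called. Scaling to the same total moved the share of higher among all called genes from 51.1% to 61.9% in shPrmt1 cells, from 49.2% to 59.3% with MS023 and from 38.8% to 53.2% between the inhibitors. Depth limits Birc3 and Icam1 in the knockdown experiment, with 34 and 7 reads over the shControl libraries.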

Other observations

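Over the 9 inhibitor libraries, the genes whose levels followed Nfkbia most closely were Upk3bl (Pearson r = 0.98), Gtdc1 (0.98) and Shroom3 (0.97), of 11253 candidates. Over the 6 knockdown libraries the same genes had r of 0.29, 0.35 and 0.30. For Icam1 they were Ptpn23 (0.93), Ndel1 (0.91) and Rusc1 (0.90), of 11254, with r of -0.64, 0.51 and -0.72 in the knockdown experiment. Icam1 was below the filter there, with 7 reads over the shControl and 14 over the shPrmt1 libraries, so its knockdown r rest on few reads. The r over the 9 inhibitor libraries are descriptions over libraries that fall into 3 groups, and each is the highest of many.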
